A study of Mus musculus with 3 samples.

Results

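Tigger, Kanga and MARNA repeats are remnants of DNA transposons of the Tc1/mariner superfamily, and their reads were followed through 3 RNA immunoprecipitation libraries of mouse hippocampus. All repeat names that begin with Tigger, Kanga, Mariner or MARNA, in any letter case, were taken. They numbered 42 of the 18484 names in the deposited tables, namely 34 Tigger names, 7 Kanga names and 1 MARNA name, and 0 names began with Mariner. The mice were 9 months old, on a C57BL/6 background, and either PS19 or wild type (WT). PS19 mice carry a mutant human tau transgene driven by the mouse prion protein promoter. From PS19, 1 library was made from RNA precipitated with an antibody to ZBP1, a protein that senses nucleic acid in the left-handed Z conformation, and 1 with an antibody to Z-form nucleic acid (ZNA) itself. From WT, 1 library was made with the ZNA antibody. With 1 library per group there is no replicate spread, so no test of a genotype or an antibody was possible. All intervals below are 95% intervals that cover counting error alone, and reads without molecular identifiers are not independent molecules. No input or control-antibody library was analysed here, so a level is an amount in a precipitate and not an enrichment.

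DNA transposons of this superfamily move by cut and paste. A transposase with a DDE catalytic triad recognises the terminal inverted repeats, excises the element and inserts it at a TA dinucleotide, which is duplicated. There is no RNA intermediate, in contrast to LINEs, SINEs and endogenous retroviruses. Tigger elements belong to the pogo branch, Kanga elements to the Tc2 branch and MARNA to the mariner branch. In the mouse they are old copies without known activity, and transcribed copies commonly lie inside introns, untranslated regions and long noncoding RNAs of the host. Most numbered names with a letter are subfamilies derived from a related element, many of them internally deleted and unable to encode transposase. A repeat name pools every genomic copy, so no position, strand or host gene belongs to any value below, and a high level of one name against another also depends on its number and length of copies.

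The libraries held 1425383 reads (PS19 ZBP1), 2918985 reads (PS19 ZNA) and 3234786 reads (WT ZNA) on repeat names, most of them on the 2 ribosomal RNA names, LSU-rRNA_Hsa and SSU-rRNA_Hsa. Reads outside these 2 names made up 5.22%, 10.6% and 4.49% of the libraries. Values are therefore given on 2 scales, as CPM (counts scaled to a common library total) and as the same count scaled to the reads outside rRNA. On the first scale any name outside rRNA shares in the difference in that percentage. All other reads outside rRNA, summed, were 2.35-fold higher in PS19 ZNA than in WT ZNA and 2.02-fold lower in PS19 ZBP1 than in PS19 ZNA per library total.

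The 42 names together held few reads in any library. They had 340 reads in the PS19 ZBP1 library, or 239 CPM (95% Wilson interval 214 to 265 CPM). In the PS19 ZNA library they had 1272 reads, or 436 CPM (412 to 460 CPM). In the WT ZNA library they had 560 reads, or 173 CPM (159 to 188 CPM). The PS19 ZNA library was thus the highest and the WT ZNA library the lowest per library total, and the intervals of the 3 libraries did not overlap.

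On the scale of reads outside rRNA, in counts per 1000000 such reads, the order was another one and the spread much smaller. The pooled level was 4565 for PS19 ZBP1 (4106 to 5076), 4122 for PS19 ZNA (3902 to 4354) and 3852 for WT ZNA (3547 to 4184). Expressed as shares, Tigger and mariner remnants were 0.457%, 0.412% and 0.385% of the reads outside rRNA. The intervals of all 3 libraries overlapped one another, which does not show that the levels were equal. PS19 ZBP1 and WT ZNA differ in both genotype and antibody, and no interval of their ratio was computed.

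**Figure D1:**
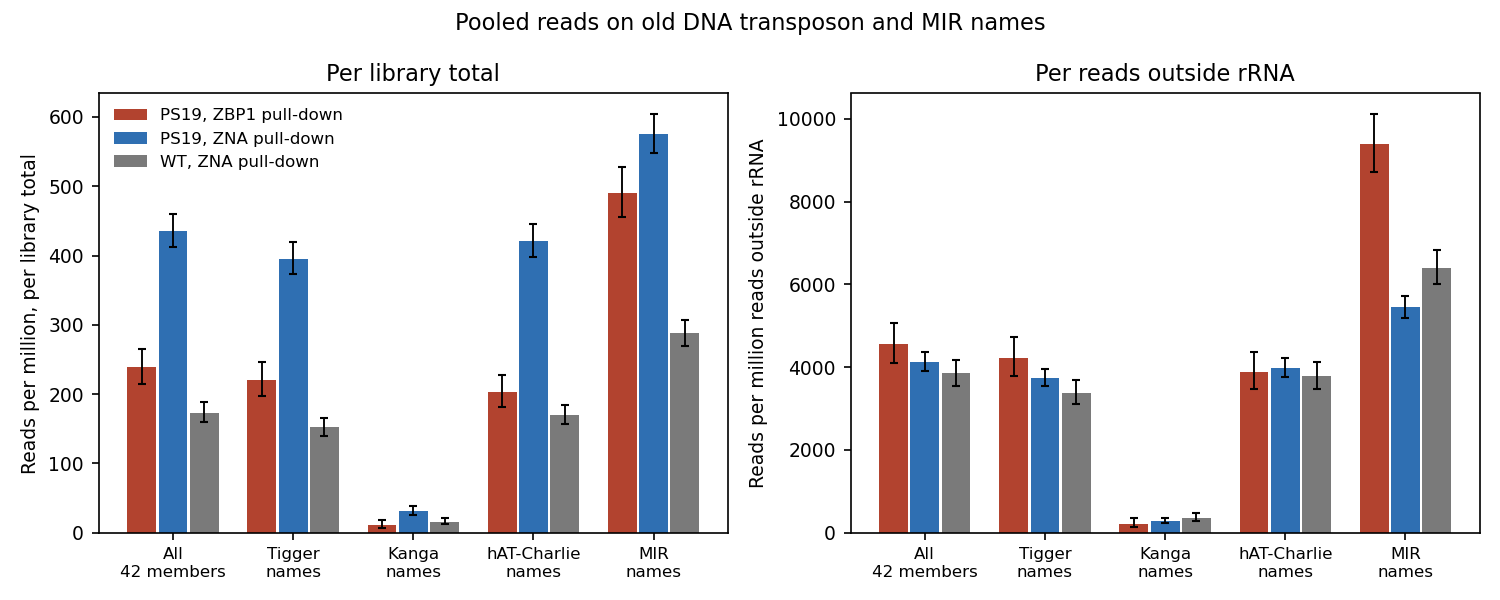
Pooled reads on the 42 names, on the Tigger and Kanga names among them, and on hAT-Charlie and MIR names, as CPM of the library total (left) and of the reads outside rRNA (right), in each of the 3 libraries (bars; error bars are 95% Wilson intervals). Per library total the 42 names stand at 239, 436 and 173 CPM in PS19 ZBP1, PS19 ZNA and WT ZNA, and per reads outside rRNA at 4565, 4122 and 3852.

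Reads were spread unevenly over the 42 names, and a few Tigger subfamilies carried most of them. Tigger17a, Tigger1 and Tigger5b_Glire were the 3 most read names in each library, in different orders. The 5 most read names held 56.8%, 53.9% and 58.9% of the reads on the 42 names in PS19 ZBP1, PS19 ZNA and WT ZNA. Tigger6a and Tigger13a completed these 5 in both PS19 libraries, and Tigger5a_Glire and Kanga2_a did so in WT. The suffix Glire marks subfamilies described from rodents and lagomorphs.

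At the other end, 2 names, Tigger16b and Tigger1a_Mars, had no read in any library, and Tigger1a_Art had 2 reads, both in PS19 ZNA. The suffixes Mars and Art mark subfamilies described from marsupials and artiodactyls. With Tigger1a_Art, 6 names that had reads in PS19 ZNA were at 0 in PS19 ZBP1, where a count of 0 allows up to 2.10 CPM, and 3 were at 0 in WT ZNA, where it allows up to 0.927 CPM. Reads were found on 34, 40 and 37 of the 42 names in PS19 ZBP1, PS19 ZNA and WT ZNA. Among all repeat names, 1103, 1324 and 1147 had reads in these libraries, which is the same order. The libraries held 74474, 308613 and 145372 reads outside rRNA, again in that order. Whether the counts of 0 follow from depth was not tested. The ranks of the names by reads had a Spearman correlation of 0.839 between PS19 ZNA and WT ZNA, 0.864 between PS19 ZBP1 and PS19 ZNA and 0.733 between PS19 ZBP1 and WT ZNA, over all 42 names. Over the 24 names with at least 20 reads in all, the same correlations were 0.758, 0.689 and 0.504, lower for each pair.

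Among the 3 most read names, Tigger17a had 56 reads in PS19 ZBP1 (39.3 CPM), 193 in PS19 ZNA (66.1 CPM) and 125 in WT ZNA (38.6 CPM). Per library total, the PS19 ZBP1 and WT ZNA libraries lay close together for it, with PS19 ZNA above both. As CPM of the reads outside rRNA, Tigger17a stood at 752, 625 and 860 in the same order, with PS19 ZNA the lowest. On that scale the ratio of PS19 ZBP1 to PS19 ZNA had an interval that included no difference (0.877 to 1.63). Tigger1 had 46 reads (32.3 CPM), 203 reads (69.5 CPM) and 81 reads (25.04 CPM) in the same order of libraries, and was the most read of the 42 names in PS19 ZNA. Tigger5b_Glire had 63 reads (44.2 CPM), 149 reads (51.0 CPM) and 76 reads (23.5 CPM). It was the most read of them in the PS19 ZBP1 library, where its level per library total came close to that in PS19 ZNA. As CPM of the reads outside rRNA, Tigger5b_Glire stood at 846, 483 and 523, with PS19 ZBP1 the highest. Tigger1 stood at 618, 658 and 557 on that scale, with PS19 ZNA the highest.

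Another 7 names, all Tigger, followed at mean levels between 7.68 and 13.8 CPM. Tigger6a had 10.5 CPM in PS19 ZBP1, 25.7 CPM in PS19 ZNA and 5.26 CPM in WT ZNA, on 15, 75 and 17 reads. Tigger13a had 9.12, 22.3 and 6.49 CPM in the same order, on 13, 65 and 21 reads. Tigger5a_Glire had 7.02, 15.1 and 8.04 CPM on 10, 44 and 26 reads, and unlike the other 2 it stood lower in PS19 ZBP1 than in WT ZNA. Tigger19b had 7.72, 15.8 and 1.85 CPM, on 11, 46 and 6 reads. Tigger15a had 8.42, 14.4 and 2.47 CPM, on 12, 42 and 8 reads. Tigger10 had 5.61, 14.7 and 4.95 CPM on 8, 43 and 16 reads, and Tigger9b 4.91, 14.7 and 3.40 CPM on 7, 43 and 11 reads. Per library total, PS19 ZNA was the highest library for each of the 7. On that scale 87.8% of all names were higher in PS19 ZNA than in WT ZNA, and 77.9% were lower in PS19 ZBP1 than in PS19 ZNA. As CPM of the reads outside rRNA, Tigger15a was highest in PS19 ZBP1 (161, against 136 in PS19 ZNA). Tigger5a_Glire was highest in WT ZNA (179, against 143 in PS19 ZNA). The intervals of both these ratios included no difference. The rest of the 7 stayed highest in PS19 ZNA.

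**Figure D2:**
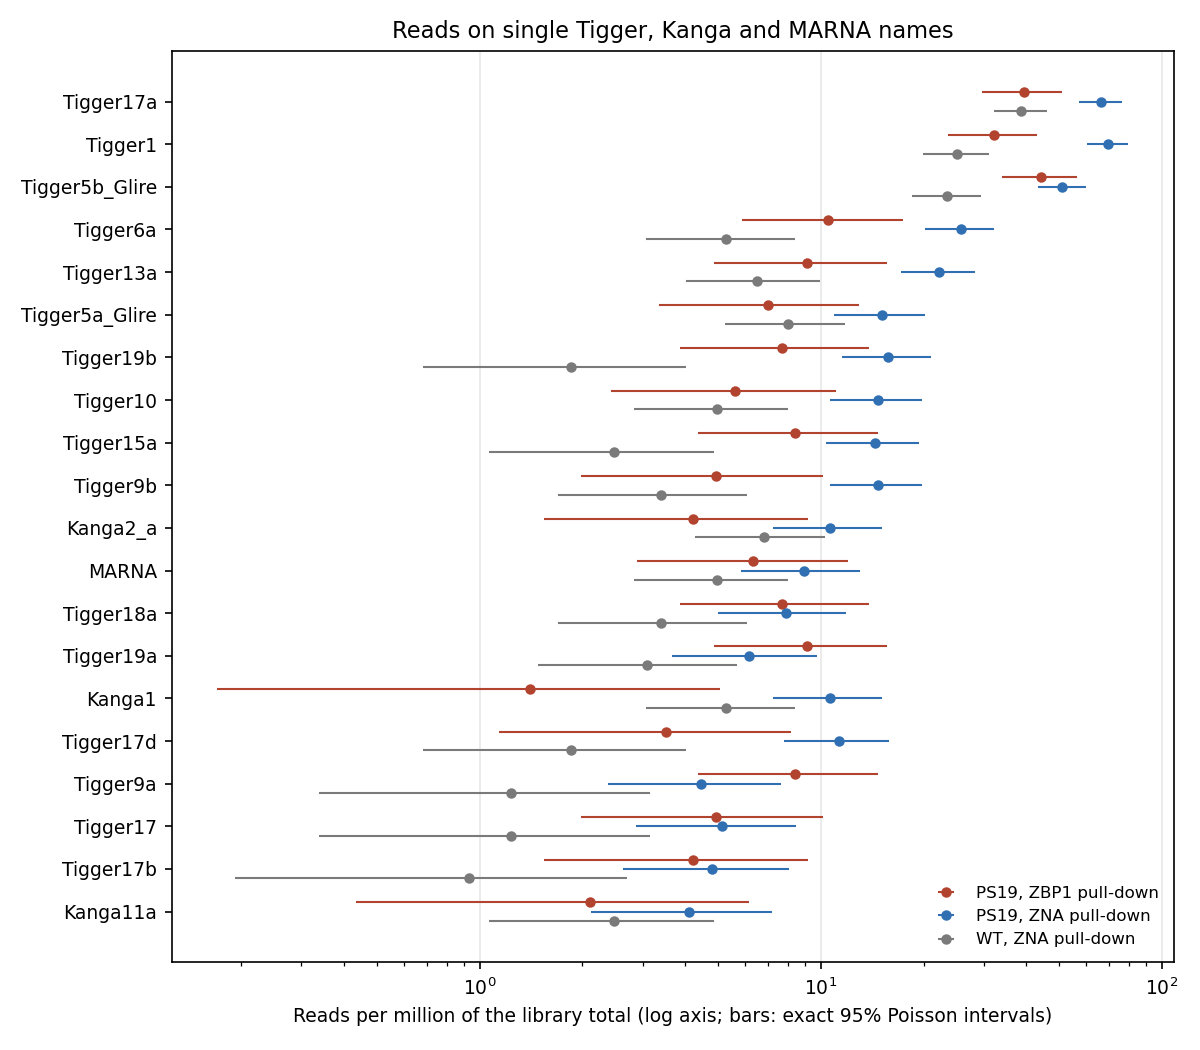
CPM of the library total on the 20 names described singly, on a log axis, for the 3 libraries (points; bars are exact 95% Poisson intervals). PS19 ZNA is the highest library for most names, with Tigger9a and Tigger19a as names where PS19 ZBP1 stands higher, and Kanga1 has its lowest value in PS19 ZBP1.

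The first comparison set PS19 against WT within the ZNA pull-down. The 42 names pooled were 2.52-fold higher in the PS19 library per library total (exact interval 2.28 to 2.79). Scaled to reads outside rRNA they were 1.07-fold higher (0.968 to 1.18), an interval that includes no difference. Tigger17a weighed on that value: without it, the other 41 names were 1.17-fold higher in PS19 (1.04 to 1.31), an interval above 1. Other old repeats, described below, were near this on the same scale or lower. L2 names were 1.09-fold higher (1.04 to 1.16) and hAT-Charlie names without their most read name 1.11-fold higher (0.985 to 1.26). MIR names were 1.18-fold lower (1.08 to 1.28). Per library total, 38 of the 40 names with a read in either library were higher in PS19 and 2 were lower, against 87.8% and 12.2% of all 1406 such names. The 2 lower ones, picked after their values were seen, were Tigger11a, with 4 reads in PS19 and 9 in WT, and Tigger8, with 5 and 8 reads. For both, the exact interval of the ratio per library total included no difference. Per reads outside rRNA, Tigger11a was 4.78-fold lower in PS19 (1.33 to 21.2), an interval that leaves out no difference. Tigger8 was 3.40-fold lower on that scale (0.980 to 13.2), an interval that includes it. Both had too few reads for the comparison of single names below.

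By branch, the Tigger names pooled were 2.60-fold higher in PS19 per library total (2.34 to 2.90) and 1.11-fold higher per reads outside rRNA (0.994 to 1.23). The 7 Kanga names pooled, on 91 and 52 reads, were 1.94-fold higher (1.36 to 2.78) and, per reads outside rRNA, 1.21-fold lower (0.846 to 1.72). MARNA, on 26 and 16 reads, was 1.80-fold higher per library total (0.930 to 3.59) and 1.31-fold lower per reads outside rRNA (0.655 to 2.53). The ratio of Kanga to Tigger reads was 1.34-fold lower in PS19 than in WT (0.920 to 1.94), so the branches were not distinguishable at this depth.

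For single names, a log2 ratio of CPM with a pseudocount of 1 was used, and a name was compared when its mean was at least 1 CPM and its summed reads at least 20 over the 2 libraries. For names with few reads the pseudocount makes a ratio look smaller. Of the 42 names, 19 could be compared. Per library total, 11 of these 19 stood at least 2-fold above WT in PS19 and 0 stood as far below, against 74.3% higher and 0.421% lower among all 713 names compared. The median log2 ratio of the 19 was 1.05, against 1.24 for all 713 names, and the 19 ran from 0.56 to 2.55. Per reads outside rRNA, 3 of the 19 stood at least 2-fold above WT and 0 as far below, against 3.51% and 2.66% of all names. The median was then -0.018, against 0.072 for all names, with 9 of the 19 above 0 and 424 of all 713 names (59.5%).

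The names that stood highest in PS19 were Tigger19b, Tigger15a, Tigger17d, Tigger6a and Tigger9b. Tigger19b, with 46 reads in PS19 and 6 in WT, was 8.50-fold higher per library total (3.62 to 24.3) and 3.61-fold higher per reads outside rRNA (1.54 to 10.3). Tigger15a, on 42 and 8 reads, was 5.82-fold higher (2.70 to 14.3) and 2.47-fold higher (1.15 to 6.10) on the same scales. Tigger17d, on 33 and 6 reads, was 6.10-fold higher (2.52 to 17.8) and 2.59-fold higher (1.07 to 7.56). These 3 are the names that stayed at least 2-fold higher per reads outside rRNA on the log2 scale with the pseudocount.

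Tigger6a, on 75 and 17 reads, was 4.89-fold higher per library total (2.86 to 8.83) and 2.08-fold higher per reads outside rRNA (1.22 to 3.75), just under the 2-fold limit once the pseudocount is added. Tigger9b, on 43 and 11 reads, was 4.33-fold higher (2.20 to 9.32), and its interval per reads outside rRNA, 0.934 to 3.96, included no difference.

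The lowest ratios were those of Kanga11a, Kanga2_a, MARNA, Tigger17a and Tigger19a, all still higher in PS19 per library total. Tigger17a was 1.71-fold higher per library total (1.36 to 2.16) and 1.38-fold lower per reads outside rRNA (1.09 to 1.73). Kanga2_a, with 31 and 22 reads, was 1.56-fold higher (0.875 to 2.83), and Kanga11a, with 12 and 8 reads, 1.66-fold higher (0.625 to 4.69). Tigger19a, with 18 and 10 reads, was 1.99-fold higher (0.873 to 4.84). The ratios of Kanga2_a, Kanga11a, MARNA and Tigger19a had intervals that included no difference on both scales.

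On the latter scale the exact interval lay above 1 for 4 of the 19 names (Tigger19b, Tigger17d, Tigger15a and Tigger6a) and below 1 for 1 (Tigger17a). Among all 711 names outside rRNA that were compared, the shares were 14.6% and 6.47%. These intervals are not adjusted for the number of names. Of the names below the filter, Tigger21a had 6 reads in PS19 ZNA and Kanga1d had 5, with 0 in WT ZNA, a pair picked after its values were seen.

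**Figure D3:**
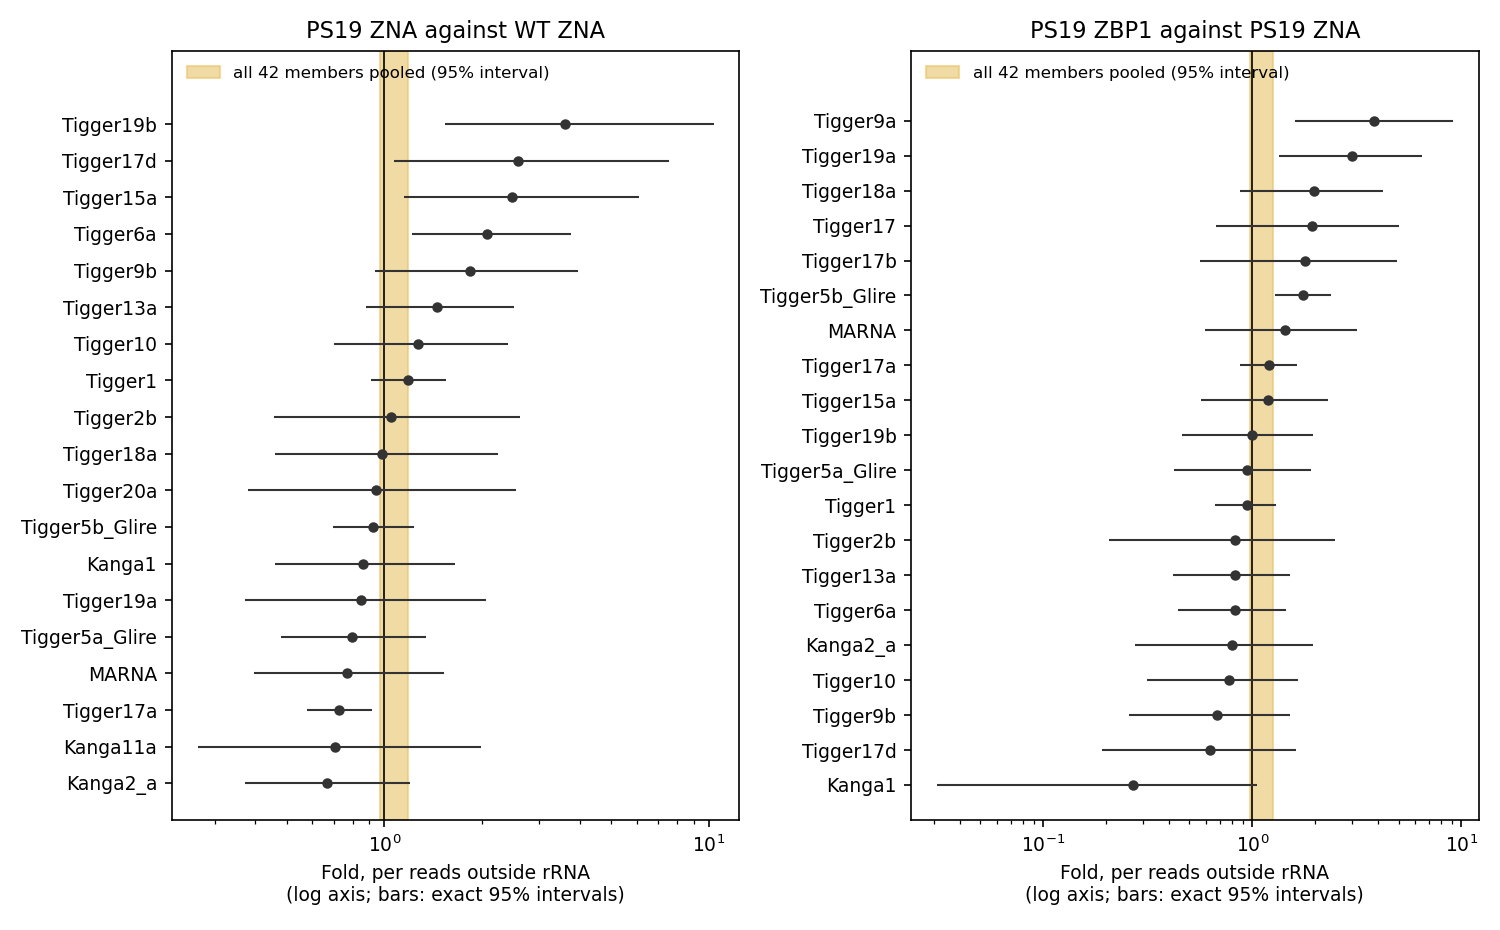
Fold between 2 libraries per reads outside rRNA for each name that could be compared (points; bars are exact 95% intervals, log axis), for PS19 ZNA against WT ZNA (left, 19 names) and PS19 ZBP1 against PS19 ZNA (right, 20 names). The shaded band is the interval of all 42 names pooled, 0.968 to 1.18 on the left and 0.980 to 1.25 on the right; Tigger19b (3.61) leads the left panel and Tigger9a (3.83) the right, and Kanga1 (0.267) is lowest on the right.

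Names of the same numbered family were then pooled, a grouping made after the values were seen. The 3 Tigger6 names had 101 reads in PS19 ZNA and 21 in WT ZNA, 5.33-fold higher per library total (3.31 to 8.98) and 2.27-fold higher per reads outside rRNA (1.41 to 3.82). Besides Tigger6a, Tigger6 itself (15 and 2 reads) and Tigger6b (11 and 2 reads) were higher in PS19 per library total. So were most names, 38 of 40 among the members and 87.8% of all. Per reads outside rRNA the intervals of Tigger6 (0.822 to 31.8) and Tigger6b (0.565 to 24.1) included no difference. The 2 Tigger19 names, with 64 and 16 reads, were 4.43-fold higher (2.53 to 8.21) and 1.88-fold higher (1.08 to 3.49). The 2 Tigger9 names, with 56 and 15 reads, were 4.14-fold higher (2.31 to 7.88) and 1.76-fold higher (0.981 to 3.35).

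The Tigger17, Tigger5, Tigger1 and Kanga1 families had ratios between 2.04-fold and 2.80-fold, and the differences between families were not tested. The 5 Tigger17 names had 260 and 141 reads and were 2.04-fold higher per library total (1.66 to 2.53) and 1.15-fold lower per reads outside rRNA (0.931 to 1.42). Within that family Tigger17d had the highest ratio and Tigger17a the lowest, at 6.10-fold and 1.71-fold per library total, with intervals that did not overlap. Between them lay Tigger17b at 5.17-fold (1.44 to 28.1), Tigger17 at 4.16-fold (1.32 to 17.2) and Tigger17c at 1.85-fold (0.359 to 11.9). The intervals of these names overlapped those of both Tigger17d and Tigger17a. The 2 Tigger5 names, both of the Glire kind, had 193 and 102 reads and were 2.10-fold higher (1.64 to 2.69) and 1.12-fold lower (0.874 to 1.43). The 3 Tigger1 names had 205 and 81 reads and were 2.80-fold higher (2.16 to 3.67), or 1.19-fold higher per reads outside rRNA (0.917 to 1.56). The 5 Kanga1 names had 48 and 22 reads and were 2.42-fold higher (1.43 to 4.21), or 1.03-fold higher per reads outside rRNA (0.609 to 1.79).

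The 2 antibodies were then compared within PS19, ZBP1 against ZNA, a comparison that shares the PS19 ZNA library with the first. The 42 names pooled were 1.83-fold lower in the ZBP1 library per library total (1.62 to 2.07). Scaled to reads outside rRNA they were 1.11-fold higher (0.980 to 1.25), an interval that includes no difference. Per library total, 36 of the 40 names with a read in either library were lower with ZBP1 and 4 were higher, against 77.9% and 22.1% of all 1413 such names. The 4 were Tigger9a, Tigger19a, Kanga1c (3 and 5 reads) and Tigger23a (2 reads and 1 read); the last pair was picked after its values were seen.

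The Tigger names pooled were 1.79-fold lower in the ZBP1 library per library total (1.58 to 2.03) and 1.13-fold higher per reads outside rRNA (0.995 to 1.28). The Kanga names, with 16 and 91 reads, were 2.78-fold lower (1.62 to 5.06) and 1.37-fold lower (0.801 to 2.50). MARNA, with 9 and 26 reads, was 1.41-fold lower (0.641 to 3.42) per library total and 1.43-fold higher per reads outside rRNA (0.591 to 3.16). The ratio of Kanga to Tigger reads was 1.55-fold lower in the ZBP1 library (0.890 to 2.87), again not distinguishable at this depth.

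Of the 42 names, 20 passed the filter in this comparison. Per library total, 10 of these 20 lay below ZNA by 2-fold or more in the ZBP1 library and 0 lay above it by as much, against 50.1% and 0.293% of all 682 names compared. Their median log2 ratio was -0.97, against -1.002 for all names. Per reads outside rRNA, 2 lay above by 2-fold or more and 1 below, against 8.21% and 7.92% of all names, with medians of -0.045 for the 20 and -0.047 for all. The 20 names spread widely around that median, from -1.48 to 1.64.

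The highest ratios of ZBP1 to ZNA were those of Tigger9a, Tigger19a, Tigger18a, Tigger17 and Tigger17b. Tigger9a, with 12 ZBP1 reads and 13 ZNA reads (8.42 and 4.45 CPM), was 1.89-fold higher per library total (0.788 to 4.49) and 3.83-fold higher per reads outside rRNA (1.60 to 9.09). Tigger19a, with 13 and 18 reads (9.12 and 6.17 CPM), was 1.48-fold higher (0.666 to 3.19) and 2.99-fold higher (1.35 to 6.46). These were the 2 names past 2-fold per reads outside rRNA. In WT ZNA they had 4 and 10 reads.

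Tigger18a had 11 and 23 reads, at 7.72 and 7.88 CPM, and Tigger17 7 and 15 reads, at 4.91 and 5.14 CPM. Tigger17b had 6 and 14 reads, at 4.21 and 4.80 CPM. For these 3 the levels in the 2 pull-downs were nearly alike per library total, and their intervals per reads outside rRNA included no difference.

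Among the 3 most read names, Tigger5b_Glire had the highest ratio of ZBP1 to ZNA. It was 1.15-fold lower in the ZBP1 library per library total (0.855 to 1.58) and 1.75-fold higher per reads outside rRNA (1.28 to 2.37). It made up 18.5% of the reads on the 42 names in the ZBP1 library, 11.7% in PS19 ZNA and 13.6% in WT ZNA. Its partner Tigger5a_Glire, at 10 and 44 reads, was 2.15-fold lower per library total (1.07 to 4.79) and 1.06-fold lower per reads outside rRNA (0.527 to 2.36).

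The lowest ratios were those of Kanga1, Tigger17d, Tigger9b, Tigger10 and Tigger6a. Kanga1 had 2 ZBP1 reads and 31 ZNA reads, a ratio of 0.132 per library total with a counting interval of 0.015 to 0.519. Its ratio was 0.267 per reads outside rRNA (0.031 to 1.05), an interval that reaches 1, and it was the 1 name at least 2-fold lower on that scale. Tigger17d, with 5 and 33 reads, was 3.22-fold lower per library total (1.25 to 10.6), and Tigger9b, with 7 and 43 reads, stood at a ratio of 0.333 (0.127 to 0.747). Tigger10, with 8 and 43 reads, was 2.62-fold lower (1.22 to 6.47), and Tigger6a, with 15 and 75 reads, 2.44-fold lower (1.39 to 4.58). The intervals of these 4 included no difference once scaled to reads outside rRNA.

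Per reads outside rRNA, the exact interval lay above 1 for 3 of the 20 names (Tigger9a, Tigger19a and Tigger5b_Glire) and below 1 for 0, against 18.8% and 18.7% of the 680 names outside rRNA that were compared. The family partners of the first 2 had lower ratios on that scale, with intervals that included no difference. Tigger9b stood at 0.675 (0.256 to 1.51) and Tigger19b at 0.991 (0.463 to 1.94). Differences within these families were not tested. Pooled by family, the Tigger5 names were 1.57-fold higher in the ZBP1 library per reads outside rRNA (1.18 to 2.06), on 73 and 193 reads. Of these, 63 and 149 were on Tigger5b_Glire itself. The pooled intervals of the Tigger17, Tigger1, Tigger6, Tigger9, Tigger19 and Kanga1 families included no difference on that scale.

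**Figure D4:**
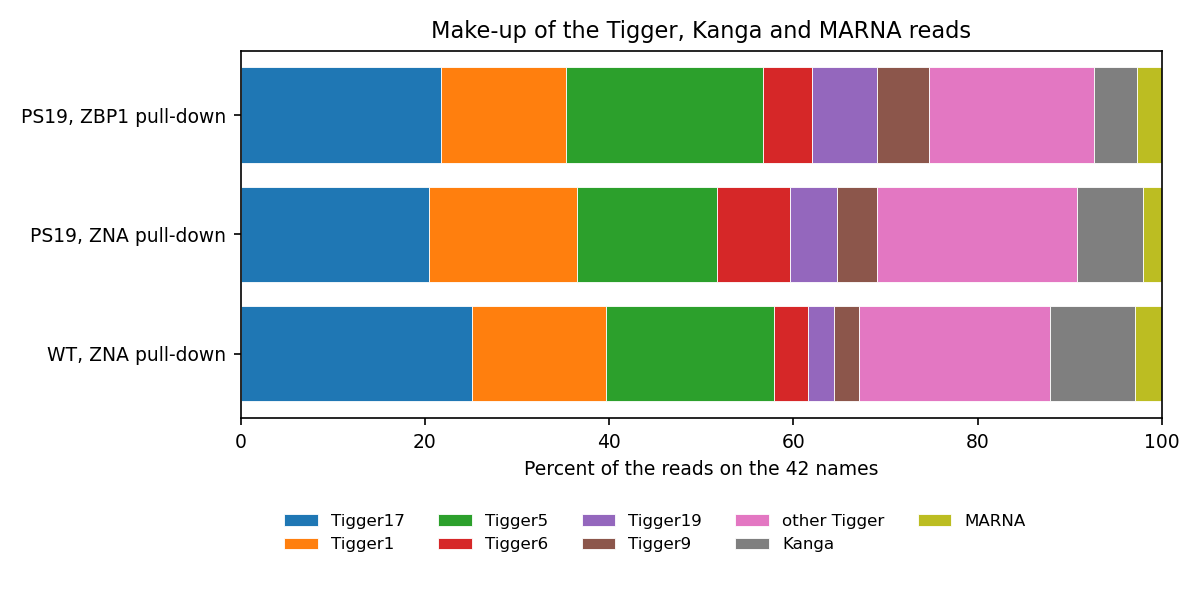
Percent of the reads on the 42 names that fell on each numbered family with several names, on the other Tigger names, on Kanga and on MARNA, for the 3 libraries (stacked bars; small families are within the other Tigger names or Kanga). Tigger17 takes 25.2% in WT ZNA and 20.4% in PS19 ZNA, Tigger5 takes 21.5% in PS19 ZBP1 and 15.2% in PS19 ZNA, and Kanga takes 9.29% in WT ZNA, 7.15% in PS19 ZNA and 4.71% in PS19 ZBP1.

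A ratio of reads within 1 library does not depend on how libraries are scaled, and hAT-Charlie elements, the other large group of old cut-and-paste transposons, served as the closest comparison. The 45 Charlie names had 290, 1230 and 550 reads in PS19 ZBP1, PS19 ZNA and WT ZNA. There were 1.17, 1.03 and 1.02 reads on the 42 names for each Charlie read in these libraries. The ratio differed 1.02-fold between PS19 and WT ZNA (0.880 to 1.17) and 1.13-fold between ZBP1 and ZNA in PS19 (0.948 to 1.36). Both intervals include no difference, and they leave room for a difference of up to 1.17-fold and 1.36-fold, respectively.

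Names beginning with L2, remnants of an old LINE, gave the same picture, with 0.276, 0.298 and 0.304 reads on the 42 names for each L2 read in PS19 ZBP1, PS19 ZNA and WT ZNA. The ratio was 1.02-fold lower in PS19 than in WT ZNA (0.911 to 1.15) and 1.08-fold lower in ZBP1 than in ZNA (0.939 to 1.24). MIR names, remnants of an old SINE transcribed in the past by RNA polymerase III, differed from the 42 names. There were 0.486, 0.757 and 0.602 reads on the 42 names for each MIR read in the 3 libraries. The ratio was 1.26-fold higher in PS19 than in WT ZNA (1.11 to 1.43) and 1.56-fold lower for ZBP1 than for ZNA in PS19 (1.34 to 1.81). In the latter comparison, per reads outside rRNA, MIR names were 1.72-fold higher with ZBP1 (1.58 to 1.88). The 42 names were 1.11-fold higher there (0.980 to 1.25), so the lower ratio went with more MIR reads and not with fewer reads on the 42 names.

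Other repeats of the same superfamily carry MER names. Of a list of 21 such names, 4 were in the tables: the Tigger-type MER2, MER46C and MER127 and the Tc2-type MER104. Together they had 100, 449 and 219 reads in PS19 ZBP1, PS19 ZNA and WT ZNA. MER2, a short non-autonomous Tigger relative, had 92, 409 and 196 of these, more than any single name among the 42. The 4 names pooled were 2.27-fold higher in PS19 than in WT ZNA per library total (1.93 to 2.68) and 1.04-fold lower per reads outside rRNA (0.877 to 1.22). Between the antibodies they were 2.19-fold lower with ZBP1 per library total (1.76 to 2.75) and 1.08-fold lower per reads outside rRNA (0.871 to 1.36). None of these 4 names stood apart from the other reads outside rRNA beyond its counting interval in either comparison.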

How the data were processed

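Read counts per repeat name were deposited by the authors as whole numbers, not normalized, as the values show. Trim Galore 0.6.5, STAR 2.5.3a, featureCounts 2.0.4 and the build mm39 are named in the submitters' processing notes; the repeat annotation, the strand setting and the treatment of reads with many matches are not given in the sources used here. Such reads can move between related names, so single names are less certain than pooled values. Groups came from the sample titles. The names and lists were chosen with earlier results of these data known.

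CPM, pooled ratios with exact conditional (Clopper-Pearson) intervals, Wilson intervals of levels and conditional odds ratios were computed with Python 3.11.15, pandas 2.3.3 and scipy 1.17.1, and TMM and median-of-ratios factors with edgeR 4.0.16 and DESeq2 1.42.0 (R 4.3.3); no count model was fitted with 1 library per group. For log2 ratios every scaling was brought to the mean library total, so that the pseudocount of 1 CPM weighs alike. The script was tested on simulated data. Names were described singly if among the 10 with the highest mean CPM, or among the 5 highest or 5 lowest log2 ratios per library total in a comparison, and a name outside this rule is given with its reads alone or as picked after its values were seen. 1 read was 0.702, 0.343 and 0.309 CPM in PS19 ZBP1, PS19 ZNA and WT ZNA. Alternatives were other scalings, pseudocounts, filters, fold limits and sets of names. No sequence is printed, since consensus sequences of these repeats were not among the references used here.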

Additional observations from a re-analysis of the deposited data

How the results depend on the processing

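Scaling had the largest effect, by construction, since rRNA sets the library total. The pooled log2 ratio of PS19 to WT ZNA, 1.33 per library total, was 0.098 per reads outside rRNA, 0.11 under TMM and 0.057 with DESeq2 size factors. That of ZBP1 to ZNA, -0.87, turned to 0.15 per reads outside rRNA and 0.089 with DESeq2 size factors and was -0.0088 under TMM. Leaving out Tigger17a, taking Tigger names alone, adding the MER names or adding MMAR1 (chosen after seeing the data) kept both within their counting intervals per library total.

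In the PS19 against WT comparison, 11 names at least 2-fold higher became 3 under each of the 3 other scalings, and the median changed sign, to -0.018 per reads outside rRNA, -0.011 under TMM and -0.052 with DESeq2 size factors. A pseudocount of 5 gave 7 names and a median of 0.70, and a pseudocount of 0.1 a median of 1.19. Without a filter 19 names and a median of 0.90 were found, and at a mean of at least 10 CPM 4 names and 1.26. A limit of 1.5-fold gave 17 names and one of 4-fold gave 4. Of 17 names described singly, 9 changed sign under each of the 3 other scalings, among them 2 that had been past 2-fold, Tigger5b_Glire and Tigger18a, to -0.11 and -0.018 per reads outside rRNA, -0.10 and -0.011 under TMM and -0.15 and -0.052 with DESeq2 size factors.

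Between ZBP1 and ZNA, the 0 higher and 10 lower names went to 2 and 1 under each of the 3 other scalings, with medians of -0.045 (reads outside rRNA), -0.19 (TMM) and -0.098 (DESeq2 size factors). A pseudocount of 5 gave 2 lower names and a median of -0.70. Without a filter 20 names were lower, at a mean of at least 10 CPM 5, and past 4-fold 1; past 1.5-fold, 1 was higher. The cause of the moves with pseudocount and filter was not tested. The ratios to Charlie reads stayed within their intervals under the alternatives run. Of 180 recomputed log2 ratios of single names, 6 changed sign from past 2-fold under the 3 other scalings, and these also left their counting interval. Apart from these 6, another 61 left their counting interval, 58 with the 3 other scalings and 3 under a pseudocount of 5. Counting the 6, 48 changed sign, all under the 3 other scalings. Between ZBP1 and ZNA 7 of 19 names changed sign under each of those scalings. Leaving out a library was not possible, and no paired analysis was possible because each group has 1 library and no test was run. Depth limits the ZBP1 library most, with 340 reads on all 42 names.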

Other observations

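The 20 names that passed the filter in neither comparison held 20, 117 and 55 reads in PS19 ZBP1, PS19 ZNA and WT ZNA, or 5.88%, 9.20% and 9.82% of the reads on the 42 names, with at most 15 reads in a library.

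MMAR1, a mouse mariner name that the choice by name did not take, was picked after its values were seen. It had 14 reads in PS19 ZBP1 (9.82 CPM), 68 in PS19 ZNA (23.3 CPM) and 32 in WT ZNA (9.89 CPM). It was 2.35-fold higher in PS19 than in WT ZNA per library total (1.53 to 3.71) and stood at a ratio of 1.001 per reads outside rRNA (0.648 to 1.58). It was 2.37-fold lower in ZBP1 than in ZNA per library total (1.32 to 4.57) and 1.17-fold lower per reads outside rRNA (0.653 to 2.26).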
